A study of Mus musculus with 14 samples.

Results

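The genes described here are the 69 genes of the count table whose symbols run from Zfp930 to Zfp998, that is, every symbol made of Zfp, a number of 3 digits that begins with 9 and at most 1 further letter, out of 56923 genes in all. They were measured by RNA-seq in 14 libraries of mouse 2-cell embryos, 2 libraries in each of 7 conditions, with 5 embryos of ICR mice per library. Early 2-cell embryos were collected at 30 h and late 2-cell embryos at 54 h after hCG. In the G&N condition of either stage the medium (mKSOM) held 10 mM lactate, 5 µM Gne140, an inhibitor of the lactate dehydrogenases LDHA and LDHB, and 50 µM NMN, a precursor of NAD+. In the G&N-L condition of either stage the medium held the same 5 µM Gne140 and 50 µM NMN but no lactate. By the paper, lactate was withdrawn at the late zygote for both stages, so late embryos had been without it for longer. Late G&N-L + Lac-CoA embryos were cultured as G&N-L and injected as zygotes with 1 mM Lac-CoA, the donor of the lactyl group in histone lactylation. Late WT and late H3K18R embryos were injected as zygotes with mRNA of wild-type histone H3 or of H3 in which lysine 18 was exchanged for arginine, on top of the endogenous H3. These last conditions form an injection experiment beside the G&N series, and no Gne140 or NMN is named for them. The study asked whether lactate, through lactylation of H3 at lysine 18, is needed for major zygotic genome activation, the burst of transcription of the late 2-cell embryo. The treatment labels of the early libraries differ from their titles, the label of the Lac-CoA libraries names CoA, and the count columns of the mutant libraries name another exchange than the titles. Groups follow the titles throughout. The methods state 3 replicates, while the files hold 2 libraries per condition, and no source says that these came from separate cultures, so the p-values measure only the spread between these libraries.

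KRAB zinc finger proteins are the largest family of DNA-binding repressors of the mouse. An array of C2H2 zinc fingers binds DNA, in many members within a transposable element, and the KRAB box recruits TRIM28 (KAP1), which in turn brings the histone methyltransferase SETDB1, HP1 proteins and histone deacetylases to the site. Their genes lie in clusters that arose by duplication and that differ even between closely related rodents, and deletion of such clusters is known to release endogenous retroviruses, elements that are themselves transcribed in the 2-cell embryo.

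The libraries held 20350427 to 61275465 counts, and the 69 genes took 0.319% to 0.556% of them. A count of 0 allows up to 3 counts, or 0.0589 to 0.144 CPM (counts scaled to a common, TMM-normalized library size) at these depths. Reads amplified by PCR are no separate molecules, and such limits speak of counting error alone. The stage labels were checked on markers. The summed level of 11 oocyte and zygote markers was 19043 to 25450 CPM in the early libraries and 1998 to 15149 CPM in the late ones, and that of 10 markers of the 2-cell stage was 571 to 964 CPM in the early and 2624 to 4019 CPM in the late libraries. Of the late conditions, G&N-L had the highest maternal sum, 13413 and 15149 CPM, against 9579 and 11080 CPM in G&N. Most of it was 1 gene, Btg4, with 11011 and 11746 CPM in G&N-L and 7193 and 8625 CPM in G&N. The other markers did not all move alike. Bmp15 was at 1616 and 2275 CPM in G&N-L against 1539 and 1575 CPM in G&N, and Nlrp5 at 113 and 93.3 against 131 and 196 CPM. Markers of cumulus and granulosa cells (15 genes) summed to 5.39 to 35.6 CPM, with 7 to 11 of the 15 at 0 in both libraries of a condition.

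All 69 genes were found by identifier in the GENCODE vM39 annotation of GRCm39, the assembly also called mm39 to which the reads were aligned. The annotation lists 67 of them as protein coding and Zfp939 and Zfp996 as pseudogenes. A letter pattern of the KRAB box was present in the predicted protein of 61 of the 67, against 124 of the 330 coding genes among the 339 other numbered Zfp genes, so most members carry the KRAB box by this pattern. The median number of C2H2 finger patterns was 11 (0 to 21), against 10 (0 to 37) in the other Zfp genes. The 6 coding members without the KRAB pattern were Zfp953, Zfp956, Zfp957, Zfp974, Zfp978 and Zfp986. Of these Zfp957 also had no finger pattern in its 567 residues, and the annotated proteins of Zfp978 and Zfp986 have 80 and 21 residues. Of the genes, 16 lie on chromosome 4, 15 on chromosome 17, 11 on chromosome 2, 9 on chromosome 7, and 5 each on chromosomes 8 and 13.

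Many of these genes are near copies of each other, which limits what a count can tell. How reads with several matches were counted, and whether strand was used, is not given in the sources used here. In 23 members over 50% of the 50-base words of the main transcript also occur in the transcript of another gene, and their median level over the 14 libraries was 3.46 CPM. The 24 members with at most 10% of shared words had a median of 44.0 CPM, and the 22 in between had 16.7 CPM. The lowest counts thus lie where the sequence is least unique. Whether reads were split or lost there was not tested. Zfp936 shared 25.1% of its words with other genes, Zfp955a 51.8% and Zfp955b 26.7% with each other, and Zfp950, Zfp948, Zfp949, Zfp933, Zfp954, Zfp957 and Zfp958 at most 1.93%. Other members named below share more, with 71.1% for Zfp989, 63.2% for Zfp932, 60.7% for Zfp984, 38.6% for Zfp988 and 23.2% for Zfp959. The changes given for them carry the same limit. Zfp942 and Zfp943 start 18 bases apart on opposite strands, so without strand their reads at that end cannot be told apart.

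The sequences before the start sites are shown for all 10 members that passed the test between early and late embryos with lactate, with 1 window for the pair Zfp955a and Zfp955b, and for Zfp936 and Zfp977. Each window is the 250 bases before the start of the main transcript of the gene in GRCm39, written 5′ to 3′ on the strand of the gene. Searched on both strands were CCAAT, the box bound by NF-Y, and its longer form GCCAATCA, which holds the shorter one. The other motifs were GGATTA of the homeodomain proteins OBOX and OTX, the nuclear receptor site AGGTCA, the SP and KLF motif GGGCGG, and the palindromic motif of DUX. Matches are in capitals. The windows lie at chr9:88429823-88430072 (+ strand) for Zfp949, chr17:21786867-21787116 (+ strand) for Zfp948, chr19:61129257-61129506 (- strand) for Zfp950, chr4:147389881-147390130 (+ strand) for Zfp988, chr17:56198827-56199076 (+ strand) for Zfp959, chr17:33474120-33474369 (- strand) for Zfp955a, chr10:82077152-82077401 (- strand) for Zfp938, chr14:79484808-79485057 (- strand) for Zfp957, chr4:147932883-147933132 (- strand) for Zfp933, chr7:42826729-42826978 (+ strand) for Zfp936 and chr7:42242010-42242259 (- strand) for Zfp977.
Zfp949: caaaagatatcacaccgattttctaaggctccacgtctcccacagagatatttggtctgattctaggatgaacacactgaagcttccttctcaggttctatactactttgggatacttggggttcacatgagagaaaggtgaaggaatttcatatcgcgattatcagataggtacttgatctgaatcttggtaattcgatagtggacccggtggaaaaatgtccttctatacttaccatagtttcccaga
Zfp948: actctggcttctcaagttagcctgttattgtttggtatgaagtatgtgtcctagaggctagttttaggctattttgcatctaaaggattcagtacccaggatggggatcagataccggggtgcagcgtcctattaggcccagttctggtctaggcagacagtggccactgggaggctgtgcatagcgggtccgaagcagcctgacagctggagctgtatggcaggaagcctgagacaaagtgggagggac
Zfp950: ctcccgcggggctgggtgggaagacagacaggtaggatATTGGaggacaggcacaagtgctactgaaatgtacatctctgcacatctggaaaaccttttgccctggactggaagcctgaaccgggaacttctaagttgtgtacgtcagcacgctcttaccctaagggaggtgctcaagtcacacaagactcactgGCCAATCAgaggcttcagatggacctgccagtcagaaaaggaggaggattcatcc
Zfp988: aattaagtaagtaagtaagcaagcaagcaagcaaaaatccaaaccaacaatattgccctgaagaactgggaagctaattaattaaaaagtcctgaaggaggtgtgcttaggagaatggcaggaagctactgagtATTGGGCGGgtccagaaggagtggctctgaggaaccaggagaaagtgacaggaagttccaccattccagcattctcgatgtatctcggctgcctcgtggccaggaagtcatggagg
Zfp959: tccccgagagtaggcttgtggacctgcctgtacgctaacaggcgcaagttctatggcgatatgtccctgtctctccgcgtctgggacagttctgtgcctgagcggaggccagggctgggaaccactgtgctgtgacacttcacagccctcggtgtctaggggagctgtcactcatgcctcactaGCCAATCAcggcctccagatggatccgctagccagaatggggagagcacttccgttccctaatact
Zfp955a: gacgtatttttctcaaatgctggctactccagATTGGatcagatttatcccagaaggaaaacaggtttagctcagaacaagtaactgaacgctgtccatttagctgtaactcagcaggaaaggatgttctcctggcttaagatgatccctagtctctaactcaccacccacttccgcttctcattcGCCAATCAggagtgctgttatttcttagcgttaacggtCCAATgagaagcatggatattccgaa
Zfp938: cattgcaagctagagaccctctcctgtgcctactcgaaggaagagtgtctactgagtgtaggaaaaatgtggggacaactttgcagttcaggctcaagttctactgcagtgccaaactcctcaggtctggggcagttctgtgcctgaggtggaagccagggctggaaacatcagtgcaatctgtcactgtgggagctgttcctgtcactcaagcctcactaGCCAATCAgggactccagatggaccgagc
Zfp957: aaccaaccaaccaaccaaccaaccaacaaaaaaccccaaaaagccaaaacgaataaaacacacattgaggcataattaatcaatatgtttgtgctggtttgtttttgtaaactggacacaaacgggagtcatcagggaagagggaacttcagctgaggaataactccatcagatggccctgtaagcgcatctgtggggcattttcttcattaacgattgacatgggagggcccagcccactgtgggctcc
Zfp933: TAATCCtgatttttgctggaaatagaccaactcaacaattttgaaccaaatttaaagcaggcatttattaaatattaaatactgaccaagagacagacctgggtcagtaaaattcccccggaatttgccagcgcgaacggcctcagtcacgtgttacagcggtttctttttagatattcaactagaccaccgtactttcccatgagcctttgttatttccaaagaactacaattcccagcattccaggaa
Zfp936: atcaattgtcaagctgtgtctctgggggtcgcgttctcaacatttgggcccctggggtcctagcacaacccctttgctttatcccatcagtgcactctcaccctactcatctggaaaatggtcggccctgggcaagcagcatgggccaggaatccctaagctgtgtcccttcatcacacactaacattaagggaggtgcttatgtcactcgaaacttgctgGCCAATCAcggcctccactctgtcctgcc
Zfp977: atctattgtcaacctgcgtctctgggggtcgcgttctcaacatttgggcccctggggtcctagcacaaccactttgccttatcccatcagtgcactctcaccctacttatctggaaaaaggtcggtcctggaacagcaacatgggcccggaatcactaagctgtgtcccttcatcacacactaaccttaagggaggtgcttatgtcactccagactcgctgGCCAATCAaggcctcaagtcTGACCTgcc

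The windows of Zfp936 and Zfp977 had the same base at 228 of 250 positions (91.2%), and those of Zfp936 and Zfp975, a further gene of chromosome 7 that is not printed, at 227 (90.8%). The windows of Zfp955a and Zfp955b were the same at all 250 positions, so 1 of them is printed. In Zfp936, Zfp977 and Zfp938 the longer motif GCCAATCA begins 29 bases before the start, in Zfp950 55, in Zfp955a 64 and in Zfp959 66 bases before it, so 6 of the 11 windows printed hold it. Zfp988 has only the shorter CCAAT, and Zfp949, Zfp948, Zfp957 and Zfp933 have neither. Of the 14 members that passed the test between the stages in either medium, 7 have GCCAATCA and 9 CCAAT, among those that rose and those that fell. CCAAT was found in 50 of the 67 coding members (74.6%), against 36.5% of the windows of 21770 coding genes. GCCAATCA was found in 25 of them (37.3%), against 4.33% of all windows and 17 of the 124 other Zfp genes with the KRAB pattern (13.7%). This longer motif was added after the windows had been read. All 25 matches read in the direction of the gene, at 26 to 174 bases before the start, with a median of 55 bases. They were spread unevenly over the chromosomes: 10 of 11 coding members on chromosome 2 had one and 0 of 16 on chromosome 4, and neighbours within a cluster share sequence. On chromosome 4 the main transcripts of Zfp980, Zfp981, Zfp982, Zfp986, Zfp992 and Zfp993, among others, start inside the annotated gene. Their windows thus lie within the gene and need not be promoters. The main transcript of Zfp986 has only 63 bases. The window of Zfp936 on chromosome 7 also lies within its annotated gene. GGATTA was in 7.46% of members and 7% of all windows, AGGTCA in 17.9% and 13.1%, GGGCGG in 14.9% and 36.3%, and the DUX motif in 0 members. The median number of CpG was 4, against 8 in all windows.

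Levels differed widely among the members. Of the 69 genes, 60 had a mean of at least 1 CPM over the 14 libraries, 39 at least 10 CPM and 10 at least 100 CPM, and Zfp939 had no count in any library. Levels are CPM on TMM-normalized library sizes. Zfp936, Zfp951, Zfp979, Zfp982, Zfp932 and Zfp958 were the highest in mean CPM and together took 51.7% of all member counts. Per kilobase of exon, the scale on which genes can be compared, Zfp936 led with a mean of 172.7 CPM per kb, followed by Zfp958 with 89.8 and Zfp951 with 88.6 CPM per kb. Zfp932, which with its paralog Gm15446 is known to bind endogenous retroviruses, had 40.1 CPM per kb. Summed over members, the level was 3840 and 4641 CPM in early G&N, 4385 and 4029 in early G&N-L, 2956 and 4391 in late G&N, 3358 and 3868 in late G&N-L, 3421 and 3491 with Lac-CoA, 5344 and 5488 in WT and 4812 and 4194 CPM in H3K18R embryos. Without Zfp936 the WT libraries summed to 3243 and 3291 CPM and lay inside the range of the other late libraries.

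**Figure D1:**
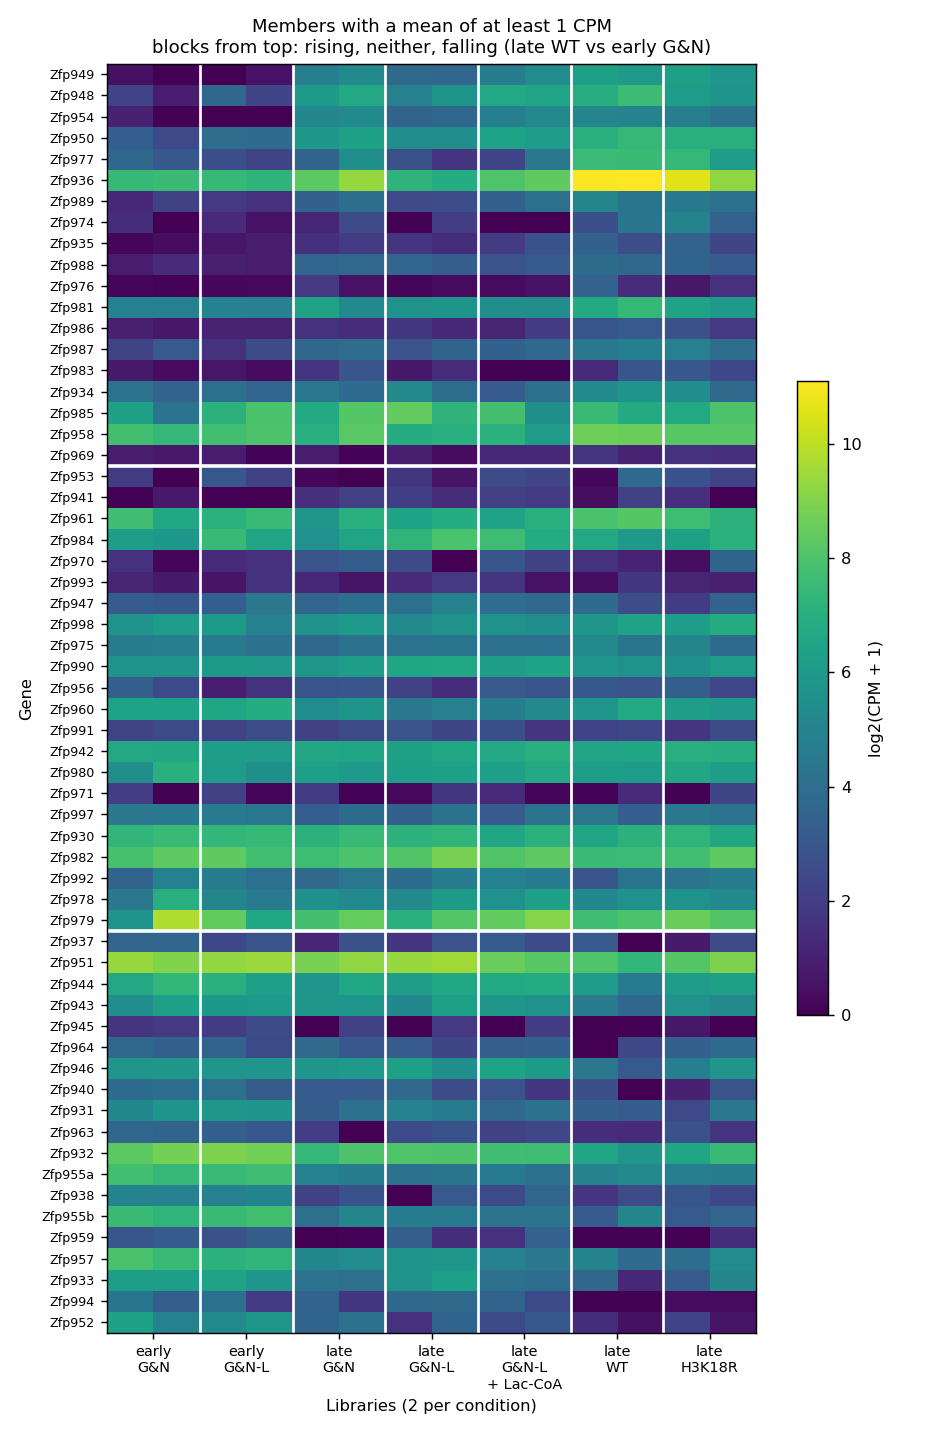
Level of the 60 members with a mean of at least 1 CPM as log2(CPM + 1) (colour) in each of the 14 libraries (columns, 2 per condition). Genes are ordered in blocks that rise, do neither or fall between early G&N and late WT libraries, which differ in injection, medium and experiment as well as in stage. Zfp936 is the brightest row in the late WT libraries, with 2101 and 2197 CPM, and Zfp955a, Zfp955b, Zfp957 and Zfp933 darken from early to late.

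Zfp936, a KRAB gene with 11 finger patterns at chr7:42763653-42844955 (+ strand) on mm39 (ENSMUSG00000064194), had the widest swing in CPM between conditions. It stood at 174 and 191 CPM in the early G&N libraries and at 172 and 149.9 CPM in early G&N-L. In late embryos it was at 315 and 642 CPM in G&N, 148 and 117 CPM in G&N-L and 266 and 335 CPM with Lac-CoA. The injected embryos were far higher, with 2101 and 2197 CPM in WT and 1487 and 615 CPM in H3K18R.

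By condition mean the order was WT (2149 ± 67.6 CPM, SD, n = 2), H3K18R (1051 ± 616), late G&N (479 ± 232), Lac-CoA (300.3 ± 48.4), early G&N (182 ± 11.9), early G&N-L (161 ± 15.4) and late G&N-L (132 ± 21.7). The libraries of H3K18R and late G&N overlapped, as did those of late G&N and Lac-CoA, while the other neighbours in that order did not. Late and early G&N-L libraries were only 2.25 CPM apart at the nearest, and their order turned with library totals in place of TMM, with means of 144 CPM on that scale in late and 141 CPM in early G&N-L. WT and the G&N series were not compared by a test, since injection, medium and experiment differ together.

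**Figure D2:**
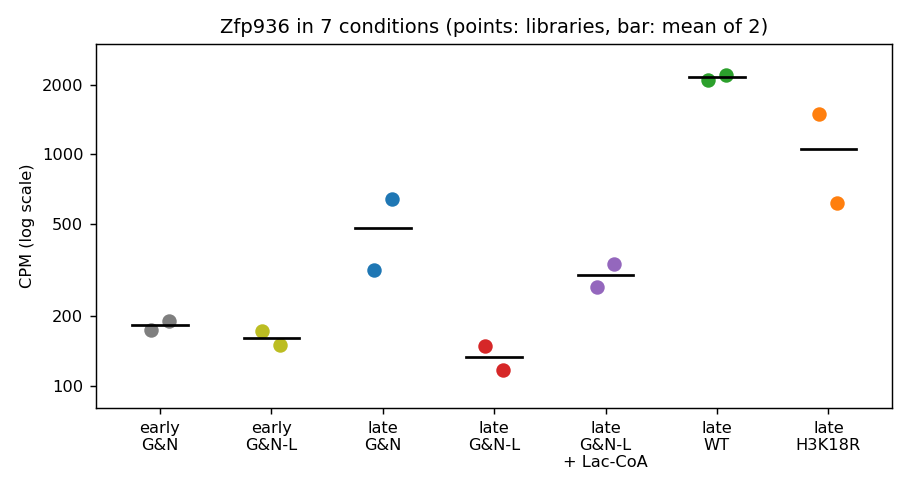
Zfp936 level in CPM (log axis) in each library (points) and the mean of 2 libraries (bars) for the 7 conditions. Late G&N-L libraries (117 and 148 CPM) lie under late G&N (315 and 642 CPM) and under Lac-CoA (266 and 335 CPM), and late WT (2101 and 2197 CPM) above all others.

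Of 9890 genes with a mean of at least 5 CPM, those most like Zfp936 over the 7 condition means of log2 CPM were Sat1, a polyamine acetyltransferase (Pearson's r 0.999), Eif3h, a translation initiation factor subunit (0.996), Gabarapl2, of the ATG8 family of autophagy (0.995), Rrp15, of ribosomal RNA processing (0.994), and Dynll1, a dynein light chain (0.993). Each r rests on 7 means that share their libraries and is a description only. Among the members, Zfp977 (0.98) and Zfp976 (0.97) followed Zfp936 most closely and Zfp994 ran most opposite (-0.95). Zfp976 and Zfp994 were near the floor in some conditions. Zfp976 was at 0.157 and 0.091 CPM in early G&N and 10.3 and 1.63 CPM in WT, and Zfp994 at 19.1 and 9.28 CPM in early G&N and 0 and 0.0617 CPM in WT. Zfp977 was at 12.1 and 7.37 CPM in early G&N, 10.5 and 45.2 in late G&N, 5.75 and 2.40 in late G&N-L, 4.03 and 20.7 with Lac-CoA, 194 and 189.9 in WT and 168 and 70.2 CPM in H3K18R. Zfp977 and Zfp936 share 1.86% of the words of Zfp977. Zfp975, whose window is nearly as close to that of Zfp936, did not follow it (r 0.33), with 24.4 and 26.3 CPM in early G&N, 12.4 and 16.7 in late G&N and 37.3 and 18.8 CPM in WT. The window of Zfp975 holds the shorter CCAAT but not GCCAATCA, which those of Zfp936, Zfp977 and Zfp976 hold. The part of the windows in these levels was not tested.

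The change from the early to the late 2-cell stage with lactate present (late against early G&N) was tested first, by edgeR's quasi-likelihood test on these 4 libraries with Benjamini-Hochberg adjustment over 19443 genes. Of the 61 members that passed the filter on low counts, 4 rose and 6 fell at an adjusted p under 0.05, where 8.18% of all genes rose and 5.47% fell. The share of members that rose, 4 of 61, lies near this background, while that of members that fell, 6 of 61, is above it. With so few genes neither is read as a result about the members. The members that rose were Zfp949, Zfp948, Zfp950 and Zfp988, and those that fell were Zfp959, Zfp955b, Zfp955a, Zfp938, Zfp957 and Zfp933.

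Zfp949 went from 0.412 and 0 CPM in the early to 25.9 and 38.7 CPM in the late libraries, a log2 fold change of 7.24 (SE 1.44, adjusted p = 0.0341). Leaving out 1 library gave 6.33 to 13.36, the latter without early G&N replicate 1, when the remaining early library has no count and the fitted value is no bound. Zfp948 went from 3.77 and 0.865 to 64.5 and 104 CPM, a log2 fold change of 5.16 (SE 0.77, adjusted p = 0.0173). Neither gene was above 3.77 CPM in an early G&N library, while Zfp948 was at 12.5 and 3.99 CPM in early G&N-L. Zfp950 rose from 8.97 and 4.44 to 60.4 and 80.6 CPM (3.35 on the log2 scale, SE 0.44) and Zfp988 from 0.863 and 1.59 to 11.3 and 12.8 CPM (3.19, SE 0.73). In none of the 4 did the early and late libraries overlap.

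Most of the members that fell started from higher levels. Zfp955a dropped from 213 and 169.5 to 29.3 and 25.2 CPM, a log2 fold change of -2.87 (SE 0.27, adjusted p = 0.00719), and its twin Zfp955b from 189.8 and 153 to 16.2 and 32.2 CPM (-2.89, SE 0.41). Zfp957 dropped from 239.7 and 179.5 to 35.8 and 39.7 CPM (-2.53, SE 0.26, adjusted p = 0.00846) and Zfp933 from 74.0 and 74.4 to 17.5 and 16.3 CPM (-2.21, SE 0.31). In each of these 4 genes both late libraries lay under both early ones. Zfp938 went from 30.6 and 29.0 to 3.58 and 5.90 CPM (-2.73, SE 0.48), and Zfp959 from 6.83 and 8.21 CPM to 0.0274 and 0.0918 CPM (-6.98, SE 1.11), which in counts is 348 and 361 against 1 and 4. In bulk libraries of whole embryos, RNA in fewer cells and less RNA per cell cannot be told apart. CPM are shares of the counted RNA, so a loss that all genes have in common does not show.

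Zfp936 itself was higher in late than in early G&N by 1.31 on the log2 scale (SE 0.40), with an adjusted p of 0.0762. Without late G&N replicate 2 it was 0.70 and without late replicate 1 it was 1.71, and the late libraries differed from each other by a factor of 2.04. Over the 61 members the median log2 fold change was -0.14, against 0.08 over all genes. Under a looser criterion, unadjusted p below 0.05 together with a log2 fold change of more than 0.5 in size, 11 members were higher and 10 lower, where 19.8% and 14.6% of all genes were (34.4% in either direction). With library totals in place of TMM the median of all genes moved to 0.46 and that of the members to 0.27, with 5 members then called higher and 6 lower, and with 38 above and 23 below 0 in place of 25 and 36. The calls depend on the libraries: without late G&N replicate 1 the count went from 10 to 0, without replicate 2 to 1, and without early G&N replicate 1 or 2 to 14 or 12. In the same embryos the summed maternal markers went from 23669 and 25450 to 9579 and 11080 CPM. Their part in the stage change of the members was not tested.

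Without lactate (late against early G&N-L) 3 of 61 members rose and 6 fell, where 5.97% of 18604 genes rose and 5.87% fell. Zfp954, Zfp988 and Zfp950 rose, and Zfp955a, Zfp955b, Zfp960, Zfp957, Zfp958 and Zfp932 fell. The comparison has no library in common with that in G&N. Of the 10 members called with lactate and the 9 called without it, 5 were the same genes, 50% of the first list and 55.6% of the second, namely Zfp950, Zfp988, Zfp955a, Zfp955b and Zfp957. Over all genes 1308 were called in both, 49.3% of those called with lactate and 59.4% of those called without it. Of 60 members tested in both, 45 (75%) had the same sign, and of 17126 genes 78.1%. The members were thus near all genes in both respects.

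Zfp954 had 0 counts in both early G&N-L libraries and 10.5 and 12.6 CPM in the late ones, which is at least 109-fold higher when the early level is set at 3 counts per library. With lactate it went from 1.04 and 0 to 34.6 and 39.0 CPM. Zfp988 went from 0.957 and 0.816 to 11.2 and 9.24 CPM (3.46 on the log2 scale, SE 0.64), next to 3.19 with lactate. Zfp950 went from 14.6 and 13.7 to 42.6 and 45.1 CPM, a log2 fold change of 1.57 (SE 0.26, adjusted p = 0.0257).

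Zfp955a and Zfp955b fell again, from 177 and 209 to 16.9 and 19.2 CPM (-3.48, SE 0.23) and from 184 and 215 to 24.7 and 23.7 CPM (-3.11, SE 0.21). Zfp960 dropped from 89.9 and 116 to 21.1 and 27.3 CPM (-2.16, SE 0.27), with 79.4% of its words shared with Zfp97. Zfp957 dropped from 140.4 and 157 to 53.2 and 58.5 CPM (-1.48, SE 0.20). Smaller falls were those of Zfp932, from 476 and 424 to 260.2 and 254 CPM (-0.87, SE 0.14), and Zfp958, from 211 and 256 to 116 and 128 CPM (-1.002, SE 0.20). Zfp933, which fell with lactate, was at 83.4 and 55.4 CPM early and 50.7 and 76.5 CPM late, and Zfp959 at 5.72 and 8.75 CPM early and 9.13 and 1.75 CPM late, so for both genes the libraries of the stages overlapped here. Zfp936 was at -0.34 on the log2 scale (SE 0.20, adjusted p = 0.327), and at 0.029 with library totals, a change of sign. By the unadjusted criterion 9 members were higher and 9 lower, where 19.0% and 13.2% of all genes were, and the median was 0.01 against 0.15 over all genes. With library totals the median of all genes was 0.51 and that of the members 0.37, with 5 members called higher and 4 lower, and 13 and 7 by the unadjusted criterion. Leaving out 1 library gave 2 to 6 calls instead of 9, with 2 without late G&N-L replicate 1, 4 without late replicate 2, 5 without early G&N-L replicate 2 and 6 without early replicate 1.

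**Figure D3:**
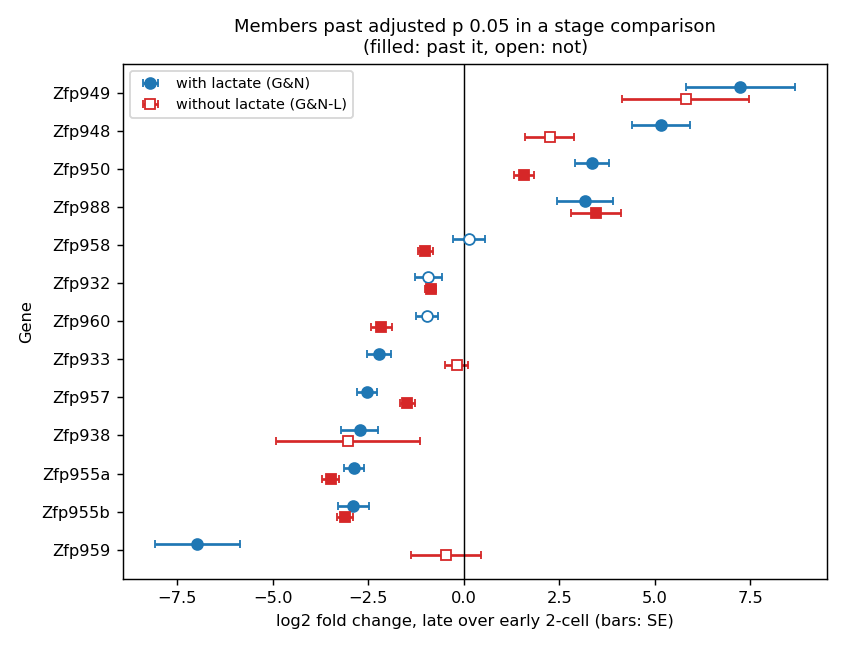
Log2 fold change from early to late 2-cell embryos (x axis, bars SE) of the 13 members past an adjusted p of 0.05 with or without lactate, apart from Zfp954, which had no counts in early G&N-L; filled symbols passed the test and open ones did not. Zfp955a and Zfp955b lie between -3.48 and -2.87 in both media, while Zfp933 is at -2.21 with lactate and -0.18 without it and Zfp959 at -6.98 and -0.47.

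In early 2-cell embryos few members differed between the media with and without lactate, the latter applied for less time than in late embryos. Of 58 tested, 0 passed the adjusted threshold by edgeR, as did 0% of 17343 genes, 4 had an unadjusted p under 0.05, and DESeq2 called 1 (Zfp985). Here and below, the share of all genes that DESeq2 called is not given, so its counts do not set the members apart. The unadjusted criterion gave Zfp984, Zfp985 and Zfp950 as higher and Zfp956 as lower in G&N-L, where 1.82% and 2.69% of all genes were (4.5% in either direction). Zfp984 was at 71.8 and 59.5 CPM in G&N and 175 and 92.2 CPM in G&N-L (1.13, SE 0.31), and Zfp985, from the same cluster on chromosome 4, at 81.6 and 17.8 CPM against 140.4 and 239 CPM (2.14, SE 0.69). Zfp950 was at 8.97 and 4.44 CPM against 14.6 and 13.7 CPM (1.23, SE 0.46), and Zfp956 at 9.16 and 4.55 CPM against 0.907 and 2.09 CPM (-2.02, SE 0.77). In each of these 4 genes the libraries of the conditions did not overlap, but single libraries moved the values. Leaving out 1 gave 0.69 to 1.46 for Zfp984, 1.46 to 3.45 for Zfp985, 0.88 to 1.69 for Zfp950 and -2.85 to -1.49 for Zfp956. Zfp936 differed by -0.07 (SE 0.21), and by 0.11 without early G&N replicate 2. The median of the members was 0.11, against -0.01 over all genes.

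In late 2-cell embryos without lactate (G&N-L against G&N), Zfp933, Zfp959, Zfp984, Zfp990 and Zfp995 had higher and Zfp936, Zfp954, Zfp949, Zfp989, Zfp977 and Zfp960 lower values by the unadjusted criterion. Of 64 members tested, 0 passed the adjusted threshold by edgeR, as did 0% of 19481 genes. The unadjusted criterion gave 5 higher and 6 lower, where 4.23% and 7.63% of all genes were, and 11 members had an unadjusted p under 0.05. DESeq2 called 6: Zfp933, Zfp936, Zfp954, Zfp959, Zfp977 and Zfp984. The 0% above is that of edgeR, and the share of all genes called by DESeq2 is not given here. The share of lower members, 6 of 64, is close to that of all genes, while that of higher ones, 5 of 64, is above it. With so few genes neither is read as a result about the members. With library totals the criterion gave 8 higher and 6 lower, and with DESeq2's size factors 7 and 5. The median log2 fold change was 0.05 for the members and -0.02 for all genes.

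Zfp936 had the second smallest p of the members. Its level of 315 and 642 CPM with lactate stood against 148 and 117 CPM without it, and the libraries did not overlap. The log2 fold change was -1.79 (SE 0.36, unadjusted p = 0.00325, adjusted p = 0.313 by edgeR). The adjusted p was 0.0312 with only genes of at least 10 counts in every library, and over all alternatives ran from 6.2e-05 with DESeq2 to 0.583 without late G&N replicate 2, where the log2 fold change was -1.16.

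Zfp954 was at 34.6 and 39.0 CPM in G&N and 10.5 and 12.6 CPM in G&N-L (-1.62, SE 0.34). Zfp949 was at 25.9 and 38.7 CPM against 13.4 and 11.7 CPM (-1.31, SE 0.37), and Zfp989 at 10.04 and 15.2 CPM against 4.42 and 5.35 CPM (-1.32, SE 0.52). These 3 genes had low levels or no counts in early embryos, and in each the libraries of the conditions were apart. Zfp977 was at 10.5 and 45.2 CPM against 5.75 and 2.40 CPM (-2.69, SE 0.85) and Zfp960 at 41.4 and 52.0 CPM against 21.1 and 27.3 CPM (-0.90, SE 0.30).

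Zfp933 was the member with the smallest p, at 17.5 and 16.3 CPM in G&N against 50.7 and 76.5 CPM in G&N-L (1.96, SE 0.33, unadjusted p = 0.00134, adjusted p = 0.311 by edgeR). Without lactate its late libraries lay on both sides of the early G&N level of 74.0 and 74.4 CPM. Zfp959 was at 0.0274 and 0.0918 CPM in G&N, which is 1 and 4 counts, and 9.13 and 1.75 CPM in G&N-L (6.49, SE 1.48). Zfp984 was at 48.1 and 89.5 CPM against 155 and 247 CPM (1.60, SE 0.38), Zfp990 at 57.6 and 71.2 CPM against 92.4 and 98.2 CPM (0.62, SE 0.23), and Zfp995 at 0.301 and 0.367 CPM against 4.60 and 2.35 CPM (3.42, SE 1.13). The libraries did not overlap in any of these 5 genes. The summed maternal markers moved in the same embryos, from 9579 and 11080 CPM in G&N to 13413 and 15149 CPM in G&N-L, with Btg4 as most of the sum. Those of the 2-cell stage summed to 2624 and 3166 CPM and to 2708 and 3166 CPM, with genes of the list moving both ways. Without lactate Obox3 fell from 289 and 498 to 126 and 153 CPM and Dppa4 from 215 and 338 to 78.0 and 72.2 CPM. Zscan4d went from 670 and 775 to 778 and 1040 CPM and Tcstv3 from 246 and 231 to 327 and 367 CPM. The part of these markers in the difference between the members was not tested.

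**Figure D4:**
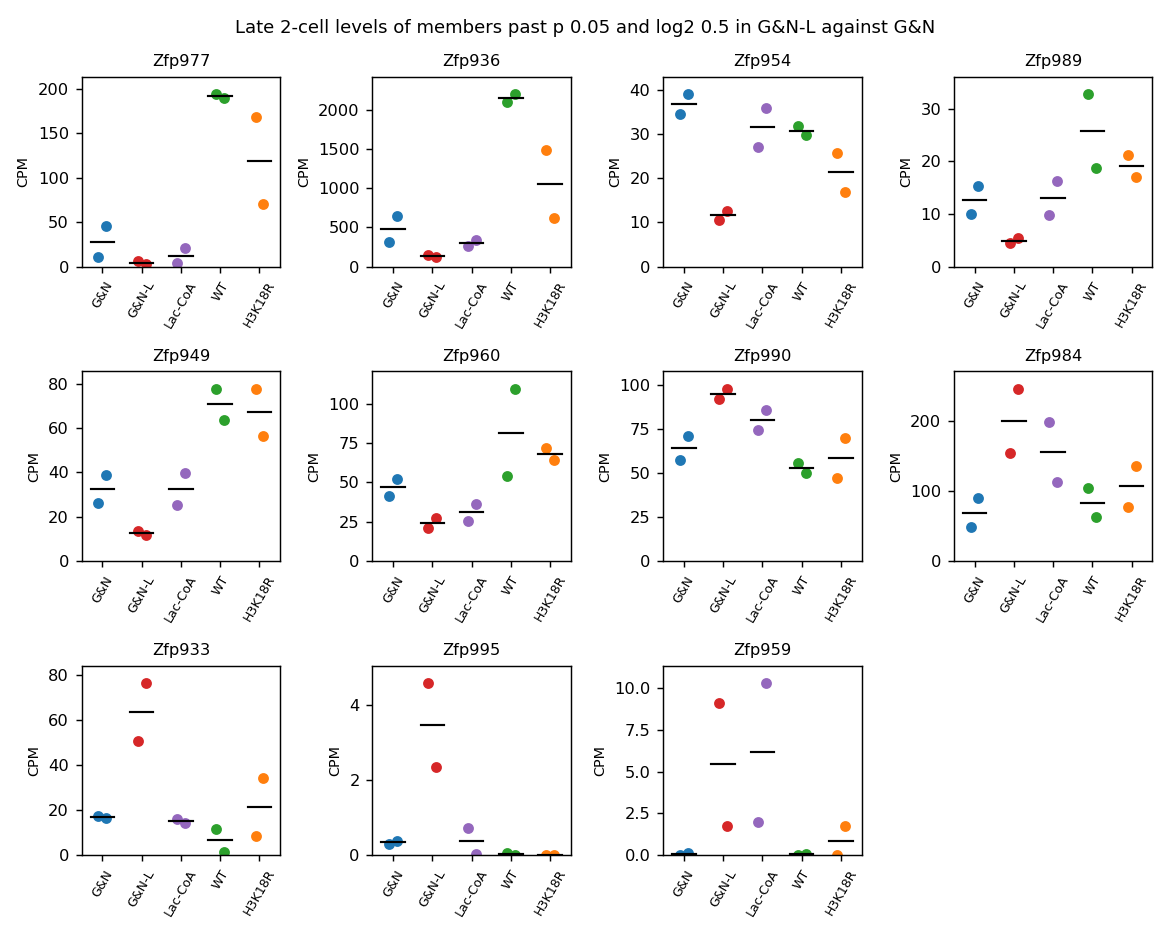
Level in CPM (linear axes from 0, one panel per gene) of the 11 members past an unadjusted p of 0.05 and a log2 fold change of 0.5 between late G&N-L and G&N, in each library (points) with the mean of 2 (bars), in 5 late conditions. Zfp936, Zfp954 and Zfp949 are lowest in G&N-L, with 117 to 148, 10.5 to 12.6 and 11.7 to 13.4 CPM, and Zfp933 is highest there, with 50.7 and 76.5 CPM.

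Lac-CoA was given to embryos without lactate to ask whether it restores what the lack of lactate changed. No mock injection is named for G&N-L or G&N, so Lac-CoA and the injection itself cannot be told apart. Of 63 members tested against G&N-L, 0 passed the adjusted threshold by edgeR, as did 0% of 19610 genes, 9 had an unadjusted p under 0.05, and DESeq2 called 6. By the unadjusted criterion 5 were higher (Zfp936, Zfp954, Zfp949, Zfp948 and Zfp950) and 4 lower (Zfp933, Zfp951, Zfp957 and Zfp983), where 6.89% and 6.29% of all genes were, and with library totals 7 and 4. The G&N-L libraries enter both this comparison and that with G&N, so the values are given side by side without a test of their relation.

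Zfp936 was at 266 and 335 CPM with Lac-CoA, 1.13 above G&N-L on the log2 scale (SE 0.22, unadjusted p = 0.00344, adjusted p = 0.294 by edgeR) and -0.57 against G&N (SE 0.35). Zfp933 was at 16.1 and 14.4 CPM, -2.11 against G&N-L (SE 0.32) and -0.06 against G&N (SE 0.39). For these genes the Lac-CoA libraries did not overlap with those of G&N-L. Zfp954 was at 27.1 and 36.0 CPM (1.40 against G&N-L, -0.13 against G&N), Zfp949 at 25.3 and 39.8 CPM (1.32 and 0.11), and Zfp989 at 9.80 and 16.2 CPM (1.36 and 0.14). Zfp977 was at 4.03 and 20.7 CPM (1.54 and -1.06), with 1 of its Lac-CoA libraries inside the G&N-L range and the other above it.

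Other genes did not overlap with G&N. Zfp959 was at 1.98 and 10.3 CPM, 6.70 against G&N (SE 1.47) and 0.11 against G&N-L (SE 1.15), and Zfp984 at 199 and 113 CPM (1.28 against G&N, SE 0.42). Some members differed from G&N-L without a difference between G&N-L and G&N past the criterion. Zfp951, with 88.6 CPM per kb among the highest members, was at 394 and 301 CPM against 659.6 and 727 in G&N-L and 452 and 608 CPM in G&N. Zfp957 was at 29.0 and 19.99 CPM against 53.2 and 58.5 CPM in G&N-L and 35.8 and 39.7 CPM in G&N, and Zfp948 at 102 and 88.6 CPM against 27.6 and 53.4 CPM in G&N-L and 64.5 and 104 CPM in G&N. In Zfp957 the Lac-CoA libraries thus lay under both others and in Zfp948 they lay within the G&N range. Zfp983 was at 0.0460 and 0.0461 CPM, which is 2 counts in each library, against 0.624 and 1.70 CPM in G&N-L and 2.19 and 6.61 CPM in G&N. The median of the members against G&N-L was 0.00 and that of all genes -0.01.

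Against G&N, 0 of 64 members passed the adjusted threshold by edgeR, as did 0% of 19613 genes, 5 had an unadjusted p under 0.05, and DESeq2 called 4 (Zfp953, Zfp959, Zfp974 and Zfp983). By the unadjusted criterion Zfp959, Zfp953 and Zfp984 were higher and Zfp983 and Zfp974 lower with Lac-CoA, where 4.41% and 4.1% of all genes were (8.51% in either direction). Zfp974 had 0 counts in both Lac-CoA libraries and 1.204 and 5.05 CPM in G&N, which is at least 45.3-fold lower with 3 counts per library as the limit. Zfp953 was at 4.92 and 3.94 CPM with Lac-CoA and 0.137 and 0 CPM in G&N.

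The mutant histone was compared with the wild-type histone in injected embryos, in which 0 of 59 members passed the adjusted threshold by edgeR, 3 had an unadjusted p under 0.05, and DESeq2 called 1 (Zfp948). Over all 17704 genes 0.00565% passed. Zfp948 was at 122 and 193 CPM in WT and 68.4 and 52.0 CPM in H3K18R (-1.38, SE 0.36, adjusted p = 0.734 by edgeR). Zfp981 was at 108 and 169 CPM against 83.4 and 63.3 CPM (-0.91, SE 0.35), and Zfp943 at 23.8 and 11.9 CPM against 47.8 and 36.3 CPM (1.24, SE 0.47). These were the 2 lower and the 1 higher member by the unadjusted criterion, where 2.67% and 3.77% of all genes were (6.44% in either direction), and in each the libraries did not overlap. Leaving out 1 library gave -1.19 to -0.56 for Zfp981, 0.82 to 1.83 for Zfp943 and -1.66 to -1.02 for Zfp948.

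Zfp936 was lower in both H3K18R libraries than in either WT library, with a log2 fold change of -1.03 (SE 0.45, unadjusted p = 0.0673). The H3K18R libraries differed from each other: replicate 1 held 1487 and replicate 2 held 615 CPM of Zfp936, and the log2 fold change was -0.53 without replicate 2 and -1.81 without replicate 1. The maternal markers summed to 2124 CPM in replicate 1 and 5381 CPM in replicate 2, against 2219 and 1998 CPM in WT. Their part in the difference of Zfp936 was not tested. Zfp933, at 11.7 and 1.33 CPM in WT and 8.53 and 34.0 CPM in H3K18R, also had its higher value in replicate 2. The median of the members was 0.15, against 0.03 over all genes.

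An interaction term over the 8 libraries of both stages with and without lactate tested whether the lactate response differed between the stages. Late embryos had also been without lactate for longer, so stage and length of exposure cannot be told apart. Of 64 members 0 passed the adjusted threshold by edgeR, as did 0% of 22287 genes, 8 had an unadjusted p under 0.05, and DESeq2 called 4. The smallest p-values were those of Zfp933 (1.99, SE 0.42, adjusted p = 0.534), Zfp959 (6.43, SE 1.44), Zfp950 (-1.83, SE 0.49) and Zfp936 (-1.69, SE 0.47, adjusted p = 0.616), which are also the 4 that DESeq2 called. A positive value means that the late embryos without lactate were higher, relative to those with it, than the early ones were. By the unadjusted criterion 4 members were positive and 4 negative, where 3.57% and 3.98% of all genes were (7.55% in either direction).

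The members were also split by their difference between late WT and early G&N embryos. The WT libraries take no part in the comparisons of lactate. Injection, medium and experiment differ here together with stage, so rising and falling do not stand for stage alone. Zfp977, for example, is rising by this split, while its late G&N libraries (10.5 and 45.2 CPM) overlapped with early G&N (12.1 and 7.37 CPM). Among the 60 members with a mean of at least 1 CPM, 19 (31.7%) were at least 2-fold higher in late WT than in early G&N without overlap of libraries, 19 (31.7%) at least 2-fold lower, and 22 neither, where 34.1% and 33.5% of 15559 genes of that level were higher and lower. In late embryos without lactate 78.9% of the 19 rising members were lower than with it, with a median difference of -0.69 on the log2(CPM + 1) scale. Among all genes, 5301 were rising, of which 74.3% were lower, with a median of -0.49. Of the 19 falling members 36.8% were lower, with a median of 0.16, and of 5209 falling genes 35.1%, with a median of 0.19. With Lac-CoA against G&N-L 63.2% of the rising members were higher (median 0.38) and 78.2% of all rising genes (0.53), and 42.1% of the falling members (median -0.12) and 24.8% of all falling genes (-0.41). The G&N-L libraries enter both sets of values, and the split was chosen after the data had been seen. GCCAATCA stood in the windows of 8 of the 20 coding members among all 21 rising ones, of 7 of 19 falling ones and of 10 of 28 others.

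By chromosome, number 7 is described because of its values, which had been seen. Its members are not 1 cluster and run from base 7115123 to 140402123. Without lactate in late embryos 6 of its 8 members tested were lower, with a median of -1.29 and a range of -3.11 to 0.41, where 9926 of 19481 genes were lower, with a median of -0.02. From early to late G&N 6 of 8 were higher, with a median of 1.67, and late G&N libraries enter both values. From early to late G&N-L, which shares no library with that stage comparison, 3 of 7 were higher, with a median of -0.15. The members on chromosomes 4 and 17, each pooled over more than 1 cluster, had medians of 0.29 (16 tested) and 0.01 (15 tested) without lactate. Between the stages these were -0.04 and -0.53. Members of 1 cluster share sequence and were not treated as replicates.

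The partners of these proteins were taken from a fixed list of 29 genes for the KRAB corepressor complex and the marks it lays down. From early to late G&N 4 of the 29 rose (Trim33, Hdac1, Sumo2 and Mta2) and 3 fell (Dnmt1, Cbx1 and Suv39h2) at an adjusted p under 0.05, where 8.18% of all genes rose and 5.47% fell, with a median of 0.13 against 0.08 over all genes. Hdac1, a histone deacetylase, rose by 3.74 on the log2 scale (SE 0.59), and Dnmt1, the maintenance DNA methyltransferase, was at -1.95 (SE 0.30). Without lactate 3 rose (Trim33, Trim24 and Mta2) and 2 fell (Dnmt1 and Ehmt1), where 5.97% and 5.87% of all genes did.

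Trim28, the scaffold that KRAB boxes bind, was at 15.2 and 15.2 CPM in early G&N, 13.7 and 18.5 in early G&N-L, 76.1 and 39.1 in late G&N, 23.9 and 27.6 in late G&N-L, 51.3 and 52.5 with Lac-CoA, 59.9 and 57.9 in WT and 64.5 and 43.6 CPM in H3K18R. Late G&N-L libraries were thus the lowest of the late ones for Trim28. The log2 fold change was 1.85 from early to late G&N (adjusted p = 0.0524 by edgeR), -1.13 without lactate (adjusted p = 0.369) and 0.96 with Lac-CoA against G&N-L (adjusted p = 0.301). Setdb1, the H3K9 methyltransferase, was at 72.1 and 59.7 CPM in early G&N, 46.2 and 33.0 in late G&N and 36.1 and 30.7 CPM in late G&N-L. In late G&N-L against G&N 0 of the 29 passed the adjusted threshold by edgeR, 6 had an unadjusted p under 0.05, and DESeq2 called 2. By the unadjusted criterion 1 was higher and 4 lower, where 4.23% and 7.63% of all genes were, with Sumo2, the SUMO modifier, at -3.22 (SE 0.44), and the median of the list was -0.40, against -0.02 over all genes.

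Among 12 other KRAB zinc finger genes with a described role, Zfp57, which keeps genomic imprints, fell in both media, from 1612 and 1001 to 257 and 213 CPM with lactate (-2.52, SE 0.29) and from 1134 and 967 to 249 and 285 CPM without it (-2.04, SE 0.15). Zfp30 had 0 counts in 4 of 4 early libraries and 32.0 and 35.7 CPM in late G&N and 89.7 and 79.6 CPM in late G&N-L. Zfp809, which silences retroviruses with the primer site for proline tRNA, was at 11.1 and 2.78 CPM in early G&N, 36.1 and 48.7 in late G&N, 29.3 and 8.30 in late G&N-L and 87.0 and 57.4 CPM with Lac-CoA. Of the 10 tested from early to late embryos, 1 rose and 1 fell with lactate (Zfp30 and Zfp57), and 1 rose and 3 fell without it (Zfp30, Zfp57, Zfp92 and Gm15446), next to the 8.18% and 5.47% of all genes with lactate and the 5.97% and 5.87% without it. In late G&N-L against G&N 0 of 10 passed the adjusted threshold by edgeR, 2 had an unadjusted p under 0.05 (Gm15446 and Zfp30, both higher), and DESeq2 called 1. Over the 274 other numbered Zfp genes tested there, 4 were higher and 21 lower by the unadjusted criterion, where 4.23% and 7.63% of all genes were, with a median of -0.20, next to 5 and 6 of the 64 members, with 0.05.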

How the data were processed

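RNA-seq was performed on 14 libraries. The deposited values are counts per gene, which the authors made with featureCounts after trimming (Trim Galore) and HISAT2 alignment to mm39. Tool versions are not given in the sources used here. The members and gene lists were chosen with earlier results of these data known. For every comparison only the libraries compared were fitted, with edgeR 4.0.16 in R 4.3.3 (filterByExpr, TMM, quasi-likelihood test, two-sided) and adjusted by Benjamini-Hochberg over all genes tested. DESeq2 1.42.0, other scalings and filters, a fit of all 14 libraries, a replicate block and leaving out each library were alternatives. Counts of members under these alternatives are given without the share of all genes. Levels are CPM on TMM sizes over 14 libraries, so folds of levels differ slightly from fitted ones. Zfp936, the members with an adjusted p under 0.05 and the 4 with the smallest p in each comparison were named by rule. The other members past the unadjusted criterion in late embryos and those shown for chromosome 7 were added after their values were seen. Tested on simulated data, edgeR recovered 13.6% of 4-fold and 41.7% of 16-fold changes over 17866 genes in the stage comparison with lactate, and 17.4% and 44.4% over 17653 genes in the late comparison without it. Promoter windows and shared words were read from GENCODE vM39 and GRCm39 (pysam 0.24.0). Exact permutation of 2 against 2 libraries reaches p = 0.333 at best and was not used.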

Additional observations from a re-analysis of the deposited data

How the results depend on the processing

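With 2 libraries per condition, calls moved with the tool and the filter, while most fold changes of named members kept their direction and their side of the threshold (444 values kept both, 33 gained and 56 lost the threshold, 2 changed sign). A gene not called in either fit also counts as kept, and in most comparisons no member was called. Of the counts and medians over members, 66 values moved and 302 did not. Members past the adjusted threshold were 18 with DESeq2 and 19 with no filter in the stage comparison with lactate (10 in the report), and 17 with DESeq2 without lactate (9). For lactate in early embryos they were 1 with DESeq2 and 4 with no filter, and in late embryos 6, 5 and, with at least 10 counts, 2. DESeq2 also gave 6 for Lac-CoA against G&N-L, 4 for Lac-CoA against G&N, 1 for H3K18R and 4 for the interaction, for which no filter gave 5. The shares of all genes called under these settings are not given here or below, so the counts do not set the members apart. The causes were not tested.

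By the unadjusted criterion, the stage comparison with lactate gave 16 lower with no filter. Early lactate gave 6 higher with no filter, and 2 lower with DESeq2, 3 with no filter and 4 with 14 libraries. Late lactate gave 8 higher with DESeq2 or library totals and 3 with 14 libraries. Lac-CoA against G&N-L gave 3 higher with 14 libraries and against G&N 4 lower with DESeq2. H3K18R gave 4 higher with DESeq2 or at least 10 counts and 6 with no filter or 14 libraries, and the interaction 2 with at least 10 counts and 1 with 14 libraries. With library totals the median of the members was 0.27 between stages with lactate and 0.37 without it, and Zfp936 was at 0.029 in late vs early G&N-L with library totals. Leaving out 1 early library moved Zfp936 in early G&N-L against G&N from -0.23 to 0.11.

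Same-numbered libraries did not deviate together (r -0.04 to 0.01), so the main fits do not pair them. No source says whether the same number marks a shared culture or day, and these correlations cannot decide it. With a replicate block the stage comparisons gave 9 and 6 calls, 7 members were higher by the criterion with lactate, 0 lower for early lactate and 2 higher for H3K18R.

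Leaving out 1 library gave 0 to 14 calls between stages with lactate and 2 to 6 without it, and 0 in each of the other comparisons. By the criterion the members higher and lower ranged from 6 to 10 and 7 to 14 between stages with lactate, 6 to 9 and 8 to 12 without it, 2 to 6 and 0 to 3 for early lactate, 3 to 9 and 2 to 8 for late lactate, 3 to 5 and 4 to 6 for Lac-CoA against G&N-L, 2 to 5 and 1 to 4 against G&N, 2 to 6 and 1 to 6 for H3K18R, and 3 to 6 and 3 to 8 for the interaction. Medians ranged, in that order, from -0.35 to 0.12, -0.015 to 0.15, 0.03 to 0.26, -0.12 to 0.21, -0.12 to 0.16, -0.04 to 0.30, 0.00 to 0.24 and -0.14 to 0.32.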

Other observations

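Some members differed between the libraries of 1 condition far more than the others. In early G&N, Zfp979, one of the highest members, was at 53.4 CPM in replicate 1 and 890.0 CPM in replicate 2, a 16.7-fold difference where the median over 37 members was 1.35-fold. In the same libraries Zfp978 was at 20.1 and 129 CPM and Zfp980 at 43.2 and 131 CPM, while Zfp985 was at 81.6 and 17.8 CPM.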
